A study of Mus musculus with 6 samples.

Results

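A set of 7 predicted mouse genes that are known by number only, Gm5458, Gm3453, Gm8362, Gm3476, Gm3149, Gm5797 and Gm6588, were followed through sperm development and between 2 diets. They are 7 of the 32285 genes in the count files. They were chosen by their counts in these same libraries, where they stood out as leading genes of late spermatocytes to round spermatids, so their levels by stage are described below and were not tested. The diet was not used to choose them and was tested. The libraries are single-cell RNA sequencing libraries from the testes of wild-type C57BL/6 mice (C57BL/6N in the study's methods), 8 weeks old, fed for 2 weeks either HFD, rich in fat, or LFD, its low-fat counterpart. There are 3 libraries for each diet and, by the study's methods, 3 mice each. The labels do not tie a library to a mouse, so p-values measure the spread between these libraries. The diets are those of the sample titles. The deposited count files carry the opposite diet in their names for all 6 libraries, so a group is named throughout by what its title labels it, HFD or LFD. If the file names are right, each diet difference below changes sign and its p-value stays as printed.

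Sperm develop from spermatogonia, which enter meiosis as spermatocytes and leave it as haploid round spermatids that then elongate. Late meiosis and the round spermatid stage use many testis-specific genes, among them large families of recently duplicated genes. The 6 members on chromosome 14 belong to such a family, known as alpha-takusan, whose name is not in the files and whose founding sequence is thought to come in part from Dlg5, a scaffold protein gene of cell junctions. What most of its members do in the testis is not known, and no role is given here for Gm6588, which lies on chromosome 5.

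The near identity of the chromosome 14 copies is shown first because it bears on every count. In the GENCODE vM21 annotation of GRCm38 all 7 are protein-coding genes. Gm3149 (ENSMUSG00000079389) lies at chr14:4317283-4325721 on the plus strand. The other 5 copies are on the minus strand: Gm3453 (ENSMUSG00000090643) at chr14:5970744-5979137, Gm3476 (ENSMUSG00000079371) at chr14:6105321-6125807, Gm8362 (ENSMUSG00000090404) at chr14:6765962-6774411, Gm5797 (ENSMUSG00000072726) at chr14:7323988-7332395 and Gm5458 (ENSMUSG00000095024) at chr14:19594139-19602581. Their transcripts match each other pairwise at 97.2% to 99.2% identity over the longest match. Their coding sequences align over 612 columns without a gap, of which 30 (4.90%) hold a difference. Coding positions 21 to 80, the stretch of 60 with the most differences, are printed here to show how little separates the copies. Gm3149, Gm8362, Gm3476 and Gm5797 are identical over this stretch, and capitals mark the bases of the other copies that depart from it.
Gm3149: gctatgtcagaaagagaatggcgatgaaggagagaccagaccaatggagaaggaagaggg
Gm3453: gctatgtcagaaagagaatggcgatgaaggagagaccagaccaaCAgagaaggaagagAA
Gm5458: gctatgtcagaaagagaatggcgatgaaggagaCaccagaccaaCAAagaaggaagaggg

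Gm6588 (ENSMUSG00000072722) is not a copy of these. It lies at chr5:112449426-112451738 on the plus strand, has 1 exon and 51.9% GC, against 39.2% to 41.4% in the longest transcripts of the other 6. By the same search it has 1 relative in the transcript set, Gm6583, which also lies on chromosome 5 (83.0% identity).

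The RefSeq promoter table (GRCm38.p6) holds 4 of the 7 members, Gm3476, Gm5458, Gm5797 and Gm6588. They are shown because the members were highest at the same stage. In the 250 bases before the start, Gm3476 and Gm5797 were identical over their 228 aligned bases, and Gm3476 and Gm5458 differed at 6 of 234. Capitals mark those differences in Gm5458 (chr14:19602588-19602837, minus strand) and Gm3476 (chr14:6125828-6126077, minus strand), and mark the matches to GGGCGG or its reverse complement in Gm6588 (chr5:112449176-112449425, plus strand).
Gm5458: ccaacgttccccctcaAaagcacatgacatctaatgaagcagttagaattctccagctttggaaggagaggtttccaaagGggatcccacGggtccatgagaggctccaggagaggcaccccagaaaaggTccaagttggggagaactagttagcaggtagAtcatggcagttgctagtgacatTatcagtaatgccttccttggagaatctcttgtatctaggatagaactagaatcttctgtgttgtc
Gm3476: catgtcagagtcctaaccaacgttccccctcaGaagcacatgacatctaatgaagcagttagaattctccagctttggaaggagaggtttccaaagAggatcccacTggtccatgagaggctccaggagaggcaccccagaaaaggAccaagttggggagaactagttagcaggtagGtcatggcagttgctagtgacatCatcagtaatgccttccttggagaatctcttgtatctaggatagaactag
Gm6588: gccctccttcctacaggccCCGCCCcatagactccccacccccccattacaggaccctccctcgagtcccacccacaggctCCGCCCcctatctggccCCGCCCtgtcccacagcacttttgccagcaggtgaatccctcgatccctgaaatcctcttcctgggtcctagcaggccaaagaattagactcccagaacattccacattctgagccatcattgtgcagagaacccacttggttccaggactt

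A set of 6 motifs was searched on both strands of these windows. The GC box GGGCGG was found 3 times in Gm6588 and in none of the 3 chromosome 14 windows, and it is in 32.7% of all 32851 windows of that length. The MYB core AACNG was found 2 times in each of the chromosome 14 windows and not in Gm6588, and it is in 74.2% of all windows. The cyclic AMP response element TGACGTCA was in none of the 4 windows and is in 1.55% of all. The same held for its 5-letter part TGACG (17.8% of all windows, those with the full element included), the CCAAT box (33.8%) and the TATA box TATAAA (12.4%). A match is a string of letters and not a binding site.

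The 6 libraries held 48939 barcodes and 39196921 to 95845514 UMIs (unique molecular identifiers, each standing for 1 captured RNA). A barcode stands for a droplet, and 284 barcode sequences (0.584%) occurred in more than 1 library. Barcodes of at least 4000 UMIs were given the germ cell stage or somatic cell type whose marker genes, none of them a member, scored highest. This placed 15083 barcodes (30.8%), which hold 81.3% of the UMIs. Every list had its highest summed CPM in its own stage or cell type. Most single markers did too, from 8 of 8 for spermatogonia to 4 of 6 for pachytene spermatocytes and for spermatids starting elongation. Early round spermatids, the stage the account turns on, were 635 barcodes, 83 to 144 per library, and 36.2% of them lay near the boundary to another stage. Their Ssxb genes and Zpbp were highest there, while Catsper3 and Catsper4 (2 of 9 markers) were higher in another stage. The 9 markers summed to 1019.6 CPM there and to 999.7 CPM in the next highest stage, so their sum hardly sets the stage apart. In HFD replicate 2 the median early round barcode held 5827 UMIs and in LFD replicate 2 it held 16983, against 27444 to 33727 in the other 4 libraries. Haemoglobin was nearly absent from the replicate 1 libraries (0.0209 CPM in HFD replicate 1 and 0 in LFD replicate 1) and took 30.5 to 99.7 CPM in the other 4, and diet values are also given within these sets of 2 and 4 libraries.

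All 7 members were low through the start of meiosis, higher in late spermatocytes and highest in early round spermatids in 6 of 6 libraries. They were lower in later round spermatids and low again in spermatids starting elongation. Levels are UMIs of a gene per 1000000 UMIs of the stage in each library (CPM). Each molecule is tagged at its 3′ end whatever its length, so CPM is not divided by gene length. The sum of the 7 members was 23.0 ± 12.2 CPM (SD, n = 6) in pachytene spermatocytes and 328 ± 57.5 in late spermatocytes. It was 779 ± 57.3 in early round spermatids, 356 ± 32.8 in later round spermatids and 40.4 ± 16.2 in spermatids starting elongation. In early round spermatids the sum stood at 787, 773 and 843 CPM in HFD replicates 1 to 3 and at 839, 704 and 724 CPM in LFD replicates 1 to 3. No library of another germ cell stage reached these values, the highest being 403 CPM in the late spermatocytes of HFD replicate 1.

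**Figure D1:**
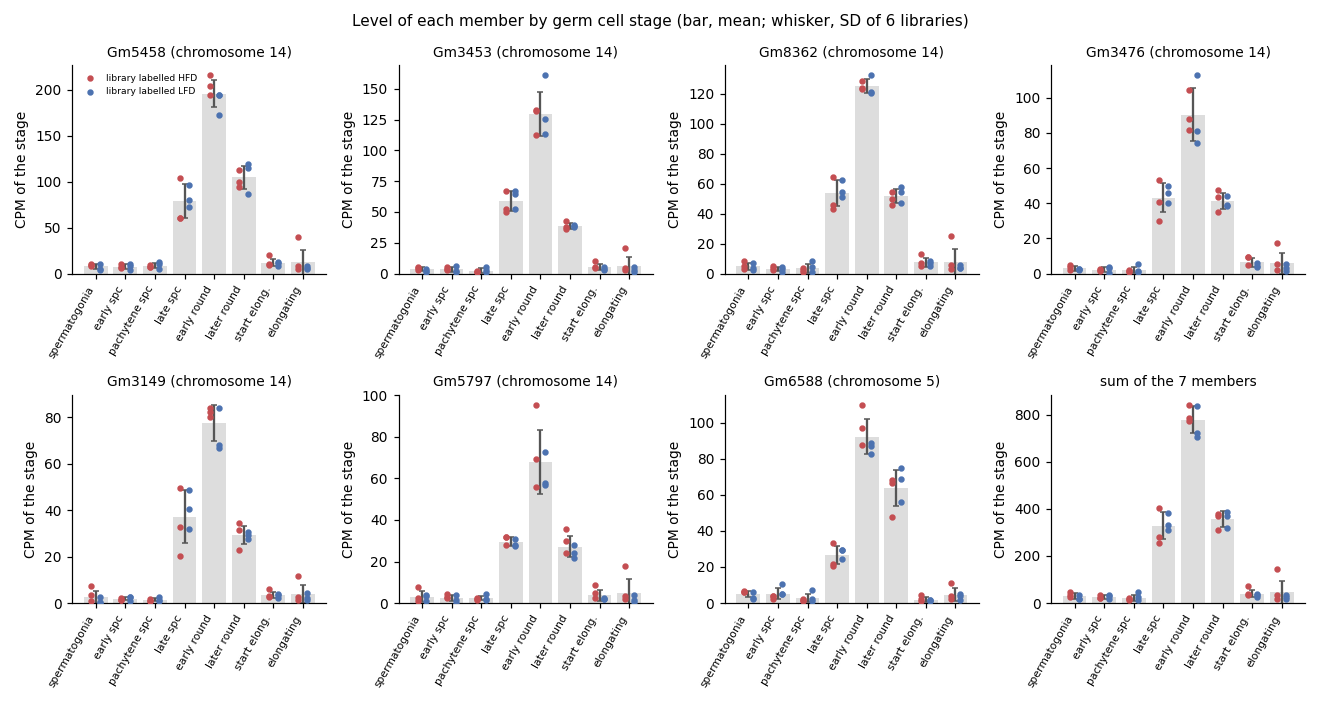
CPM of each member and of their sum (y axes from 0, with a separate scale per panel) in 8 germ cell stages (x axis; spc, spermatocytes). Bars give the mean and whiskers the SD of 6 libraries, and points are libraries labelled HFD (red) or LFD (blue). Every panel peaks in early round spermatids, with the sum at 704 to 843 CPM there.

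Gm5458 was the most counted member. In early round spermatids it stood at 216, 204 and 195 CPM in HFD replicates 1 to 3 and at 194, 172 and 195 CPM in LFD replicates 1 to 3, a mean of 196 ± 14.4 CPM (SD, n = 6). The next were Gm3453 at 130 ± 17.7 CPM (113 to 161) and Gm8362 at 125 ± 4.65 CPM (120 to 132). Gm5458 made up 25.2% ± 1.93 of the summed UMIs of the 7 there and was the first in 6 of 6 libraries. Gm6588 stood at 92.2 ± 9.83 CPM (82.7 to 110), Gm3476 at 90.3 ± 14.99 (74.2 to 113), Gm3149 at 77.4 ± 7.91 (66.6 to 84.0) and Gm5797 at 67.9 ± 15.2 (55.7 to 95.4). Past Gm5458, neighbours in this order overlapped in their ranges over libraries, except that the lowest library of Gm8362 lay above the highest of Gm6588. Among all genes the members are of middling level at this stage, from rank 1152 (Gm5458) to rank 2817 (Gm5797). For orientation, 448 of 6891 genes with at least 50 CPM in some germ cell stage (6.50%) have their highest mean in early round spermatids.

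On both sides of the peak the levels were lower. In late spermatocytes the means ran from 26.4 ± 4.98 CPM (Gm6588) and 29.6 ± 2.07 (Gm5797) to 58.8 ± 8.08 (Gm3453) and 79.0 ± 18.5 (Gm5458). In later round spermatids they ran from 27.2 ± 4.99 (Gm5797) and 29.3 ± 3.89 (Gm3149) to 63.6 ± 9.86 (Gm6588) and 105 ± 12.8 (Gm5458). In pachytene spermatocytes the members stood at 1.41 ± 0.707 (Gm3149) to 8.49 ± 2.64 CPM (Gm5458).

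The low levels were set beside those of cells that should lack the genes. Summed over libraries, the 7 members took 67.5 CPM in barcodes scored as Sertoli cells (275), 119 in macrophages (121) and 68.1 in Leydig, peritubular and stromal cells (345). Many of these barcodes lay in clusters of germ cells, and doublets were not removed. In those that also lay in a cluster of their own type the members took 29.7 CPM (130 Sertoli barcodes), 56.8 (69 macrophages) and 26.5 (135 Leydig, peritubular and stromal barcodes), against 95.7 to 156 in the others. This restriction was chosen after seeing the data. Pachytene spermatocytes, at 20.6 CPM, lay below these values, and the other germ cell stages outside late spermatocytes and round spermatids reached at most 58.3 CPM, in elongating spermatids. No expression is read here from levels of that size. Of the 635 early round barcodes, 346 lay in the cluster given that stage, at 858 CPM, and the others took 601 CPM. That cluster was mixed, with 41.2% early round barcodes beside 258 late spermatocytes and 232 later round spermatids. After thinning each barcode to 5000 UMIs, a UMI of any member was found in 91.7% of 531 early round barcodes and in 17.4% of 184 Sertoli barcodes. Shallower barcodes were left out of this count, 104 of the early round and 91 of the Sertoli barcodes. Without thinning the shares were 88.0% of 635 barcodes, at a median of 27498 UMIs, and 32.0% of 275 barcodes, at a median of 6824.

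The members did not follow the same course within this window. Gm6588 came later than the 6 chromosome 14 genes. In late spermatocytes it stood at 33.1, 21.8 and 20.3 CPM in HFD replicates 1 to 3 and at 24.5, 29.1 and 29.4 CPM in LFD replicates 1 to 3. In later round spermatids it stood at 67.9, 47.6 and 66.6 CPM and at 56.2, 74.7 and 68.8 CPM in the same order, above every late spermatocyte value. Its later round level was 2.05 to 3.28 times its late spermatocyte level in each library, with a median of 2.32. The medians of the other 6 members ran from 0.667 (Gm3453) to 1.33 (Gm5458), and their highest ratio in any library was 1.66, for Gm5458.

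For a finer order, the barcodes of late spermatocytes to later round spermatids were set along an index, the later round marker score minus the late spermatocyte score, and divided into 12 bins of 451 barcodes. The mean bin, weighted by the CPM in each bin, was 6.68 ± 0.0763 (SD, n = 6) for Gm6588, 6.22 ± 0.179 for Gm5458 and 5.34 ± 0.107 for Gm3453, the earliest. The other 4 lay from 5.62 (Gm3149) to 5.90 (Gm3476). Gm6588 was later than all 6 chromosome 14 members in 6 of 6 libraries. Averaged over libraries it was highest in bin 7, at 113 ± 24.8 CPM against 110 ± 22.6 in bin 6. In bin 7, 407 of the 451 barcodes were later round spermatids. The chromosome 14 members were on average highest in bin 4 or 5, with Gm5458 at 196 ± 19.6 CPM in bin 5. By library the highest bin ran from 5 to 8 for Gm6588 and from 3 to 6 for the chromosome 14 members. In HFD replicates 2 and 3 it was the same bin for Gm6588 and Gm5458. Among the chromosome 14 copies, Gm5458 was the latest on average and Gm3453 the earliest.

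**Figure D2:**
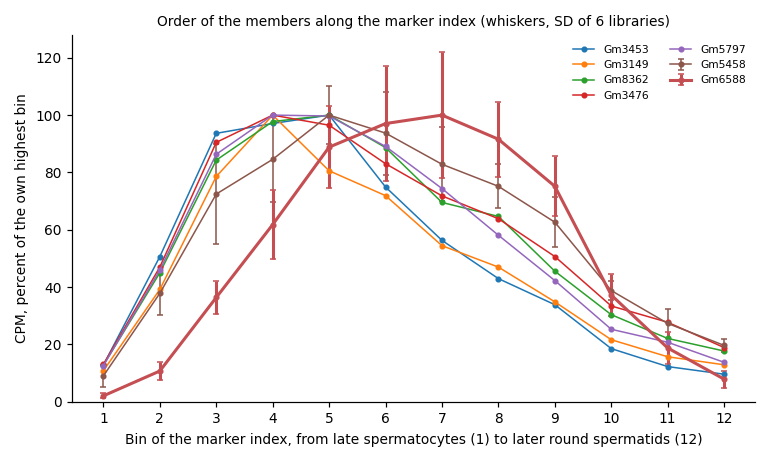
Level of each member in 12 bins of the marker index (x axis), as a percent of that member's own highest bin (y axis). Lines are means over 6 libraries, and whiskers, shown for Gm6588 (thick) and Gm5458, are SDs. On these means Gm6588 peaks in bin 7, after the chromosome 14 members, which peak in bins 4 and 5.

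Whether the members are found in the same barcodes was described for early round spermatids thinned to 5000 UMIs. The share of barcodes with a UMI of both genes was divided by the product of their 2 shares, so that 1 means independent detection. Over the 15 pairs of chromosome 14 members the median ratio per library was 1.06, 1.18 and 1.08 in HFD replicates 1 to 3 and 0.947, 1.40 and 1.06 in LFD replicates 1 to 3, a mean of 1.12 ± 0.155 (SD, n = 6). For the 6 pairs with Gm6588 it was 1.06 ± 0.125. All pairs of 1659 other genes in the same range of mean CPM gave 1.01 ± 0.00481. These genes were matched to the members by level only and not by their stage of highest level. How far a change of level within the stage raises the ratio was not tested, and the share of their pairs above 1 was not counted. Averaged over libraries, 15 of 15 chromosome 14 pairs lay above 1, from 1.04 to 1.18, while the spread between libraries reached below 1. Thinning to 10000 UMIs, which leaves out more of the shallow barcodes, gave 1.02 ± 0.0278, with 11 of 15 pairs above 1. The thinned barcodes most often held 2 members (25.4% of 531) or 3 (25.8%), while 8.29% held none of the 7 and none held all 7. Unthinned, the ratio was 1.28 ± 0.262, with 1.66 in HFD replicate 2 and 1.57 in LFD replicate 2, the libraries with the shallowest early round barcodes.

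The 6 chromosome 14 members are part of a larger set. A search of the transcript set for at least 75% identity over at least 50% of the shorter transcript found 130 relatives, all on chromosome 14 between positions 3030002 and 44750340, of which 113 are in the count files. Their median identity to the closest member was 93.3%. Only 21 reached 5 CPM in a germ cell stage. Of these, 10 had their highest mean in early round spermatids, 4 in late spermatocytes and 7 in pachytene spermatocytes. The last 7 are distant copies, at 79.5% to 81.7% identity to the closest member, and were led by Gm9732, at 42.7 ± 5.54 CPM in pachytene and 1.97 in early round spermatids. Members and relatives together took 1169 ± 103 CPM (SD, n = 6) of the early round UMIs, and the 6 members held 58.8% ± 2.22 of that. Some relatives outside the 7 were as high as members. Gm21103, at 121 ± 24.0 CPM, and Gm3460, at 93.0 ± 10.9 CPM, lay above the lowest member, and Gm5795, at 64.1 ± 17.5 CPM, just below it. Next came Gm2888 at 23.5 ± 6.76, Gm3685 at 14.7 ± 3.07 and Gm3127 at 12.6 ± 3.42 CPM.

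How many UMIs a copy received ran with how much of its 3′ end is its own. UMIs are counted near the 3′ end and are kept by the counting tool only where the read fits a single gene. Among stretches of 90 bases in the last 500 bases of its transcripts, 80.8% of those of Gm5458 occur in no other gene's transcript, against 45.6% for Gm8362, 33.5% for Gm3453, 22.9% for Gm5797, 20.2% for Gm3476 and 12.3% for Gm3149. The UMIs of these 6 over all libraries were 23596, 13203, 11738, 7323, 10184 and 7984 in the same order. Spearman's rho between share and UMIs was 0.829 over the 6 members and 0.719 over the 113 counted relatives, given as descriptions of genes that share sequence. The 24 counted relatives with no such stretch had a median of 0 UMIs and at most 721, while the others had a median of 199. The order of the chromosome 14 copies by level, and zero counts of relatives, can therefore not be told apart from how much of each can be counted. Gm6588, whose stretches are all its own, had 12424 UMIs. Its relative Gm6583 was highest in late spermatocytes, at 24.3 ± 4.24 CPM against 10.9 ± 2.57 in early round spermatids.

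**Figure D3:**
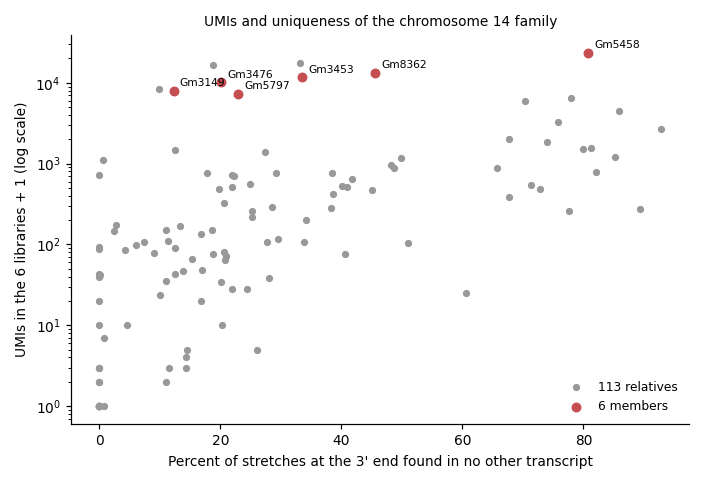
UMIs over the 6 libraries plus 1 (y axis, log scale) against the percent of 3′ end stretches found in no other gene's transcript (x axis) for the 6 chromosome 14 members (red, named) and 113 relatives (grey). Gm5458 lies at 80.8% with 23596 UMIs, and relatives at 0% have at most 721.

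Across 8 stages in 6 libraries, 48 points that share libraries and stages, the level of each member on a log2(CPM + 1) scale ran with the sum of the other 6 at a Pearson r of 0.924 for Gm6588 and 0.966 to 0.987 for the rest. Of 6884 other genes, the 10 most like the summed level were 1700001F09Rik (r = 0.989), Prss46 (0.986), 4921504E06Rik (0.9753), Iqca (0.974), Foxj1 (0.973), Gm10376 (0.971), Gm6117 (0.970), Gm10375 (0.970), Gm6370 (0.970) and Ssxb2 (0.969). All 10 have their highest mean in early round spermatids. 1700001F09Rik, Gm10376 and Gm10375 lie on chromosome 14 but were not relatives by sequence, Prss46 encodes a serine protease, Foxj1 a transcription factor of motile cilia, and Ssxb2 was among the markers that set the stage. The 3 relatives that met the level for this comparison were all among the 50 genes most like the members. The sum peaks in the range of stages by which the members were chosen, so a shared peak is built into this likeness. Relatives also share sequence with the members, and the likeness is given as a description only.

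Other multicopy families of the mouse testis were compared with the same stages. Of 15 Speer genes listed, which are related to the takusan family, 10 are in the count files and 8 of these had their highest mean in early round spermatids. Most were low: Speer4e stood at 22.4 ± 2.67 CPM and Speer4b at 21.0 ± 2.22 there. Speer2 was higher, at 96.1 ± 6.91 CPM, but peaked in late spermatocytes at 150 ± 18.5. Of 13 symbols listed for multicopy and single sex chromosome genes, 12 are in the count files. None of these 12 had its highest mean in early round spermatids. Only 5 reached 5 CPM there, and Ssty1 and Rbmy are listed at 0 in every stage. Slxl1, an X-linked multicopy gene of spermatids, stood at 363 ± 46.7 CPM in early round and 449 ± 49.7 in later round spermatids. Sly, its counterpart on the Y chromosome, stood at 13.1 ± 3.20 and 15.6 ± 3.22, and Uba1y, which was highest in spermatogonia, at 12.4 ± 1.59 and 13.02 ± 0.802. Dlg5 stood at 6.75 ± 1.74 CPM in early round spermatids and 8.26 ± 0.989 in late spermatocytes.

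The diet comparison asked whether the short HFD changed the members. No member passed the test in any stage or in the whole library. UMIs were summed per library and tested with edgeR's quasi-likelihood test, and a gene was called where its adjusted p was under 0.05. In early round spermatids 0 of 7 members were called, where 0 of 10327 genes (0%) were, with 687 genes at an unadjusted p under 0.05 and 0 calls by DESeq2. In late spermatocytes (12498 genes), later round spermatids (14913 genes) and the whole library (20727 genes) the calls were also 0 of 7 members and 0% of genes. At an unadjusted p under 0.05 there were 202, 399 and 471 genes, and DESeq2 called 0 in each. Over the 53 fits of a member in the whole library and the 8 stages, 1 had an unadjusted p under 0.05, and the lowest adjusted p was 0.727.

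**Figure D4:**
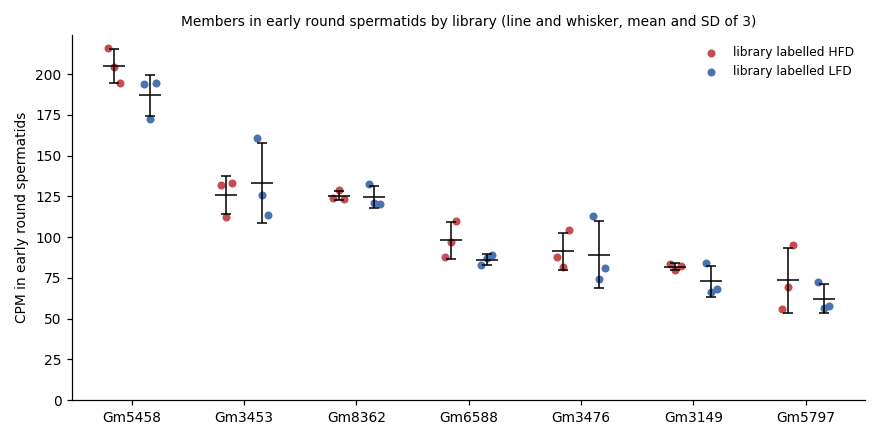
CPM of each member in early round spermatids (y axis from 0) in each library labelled HFD (red) or LFD (blue). Lines and whiskers are the mean and SD of 3 libraries. The groups overlap for 6 members, and for Gm5458 the lowest HFD library, at 194.69, lies just above the highest LFD library, at 194.60.

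The 3 libraries of a diet did not overlap with the other 3 for 1 of 7 members in early round spermatids, where this holds for 11.0% of the genes tested. This was Gm5458, at 205 ± 10.6 CPM (SD, n = 3) under the HFD label and 187 ± 12.6 under the LFD label, a log2 change of 0.12 (95% interval -0.12 to 0.36, edgeR adjusted p = 0.783). Gm6588 stood at 98.1 ± 11.2 against 86.3 ± 3.19 CPM, with a log2 change of 0.17 (-0.09 to 0.44, edgeR adjusted p = 0.727). Gm5797 stood at 73.5 ± 20.2 against 62.3 ± 8.88 CPM, a log2 change of 0.21 (-0.19 to 0.61, edgeR adjusted p = 0.764), and its highest and lowest libraries, at 95.4 and 55.7 CPM, were both labelled HFD. The remaining members had log2 changes of -0.10 (Gm3453, 126 ± 11.6 against 133 ± 24.7 CPM), -0.01 (Gm8362, 125 ± 2.89 against 125 ± 6.74), 0.01 (Gm3476, 91.3 ± 11.6 against 89.4 ± 20.6) and 0.15 (Gm3149, 81.9 ± 1.96 against 72.9 ± 9.60). The median over the members was 0.12 and over all genes tested 0.01. The intervals of the 7 members reached from -0.42 to 0.61, and changes within them cannot be told from none.

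Neighbouring stages gave changes of either sign. In late spermatocytes 1 of 7 members had a positive log2 change, with a median of -0.12, and in later round spermatids 2 of 7 did, with a median of -0.03. Over all genes tested 48.2% and 49.3% were positive. The chromosome 14 copies share sequence and all members share libraries, so their signs are not independent. The extremes were Gm3149 in late spermatocytes, at -0.21 (95% interval -0.85 to 0.43), and Gm5797 in later round spermatids, at 0.23 (-0.12 to 0.57). None of their groups was apart from the other, which is the case for 7.63% and 7.08% of genes in these stages. In the whole library Gm5797 had a log2 change of 0.22 (-0.18 to 0.62) and the other 6 lay between -0.16 (Gm6588) and -0.04 (Gm3453), and no member's groups were apart, against 6.68% of genes. In the other stages the groups were apart for 1 of the 2 members tested in spermatogonia (6.98% of genes) and 1 of 4 in early spermatocytes (8.36%), Gm6588 in both. They were apart for none in pachytene spermatocytes (8.69%), spermatids starting elongation (5.73%) and elongating spermatids (3.87%). In a whole library, fewer cells of a stage and less RNA per cell cannot be told apart. At the low levels of 2 other stages all 7 members went one way, which did not hold without 1 library. In elongating spermatids 7 of 7 log2 changes were positive (median 0.64, lowest edgeR adjusted p = 0.983), against 47.7% over all genes tested. Of the 7, 2 were positive without HFD replicate 2 (median -0.03). That library stood at 144 CPM for the sum of the members, against 17.96 to 35.0 in the other 5, and 460 of its 1100 elongating barcodes lay near a boundary. In pachytene spermatocytes 0 of 7 were positive (median -0.82, lowest edgeR adjusted p = 0.941), against 41.4% over all genes tested. Of the 7, 3 were positive without LFD replicate 2 (median -0.01). The smallest unadjusted p, 0.0415, was that of Gm6588 in pachytene spermatocytes (log2 change -1.21, edgeR adjusted p = 0.941), where LFD replicate 2 stood at 7.37 CPM and the other 5 libraries at 1.38 to 2.25. Without LFD replicate 2 the log2 change was -0.22.

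**Figure D5:**
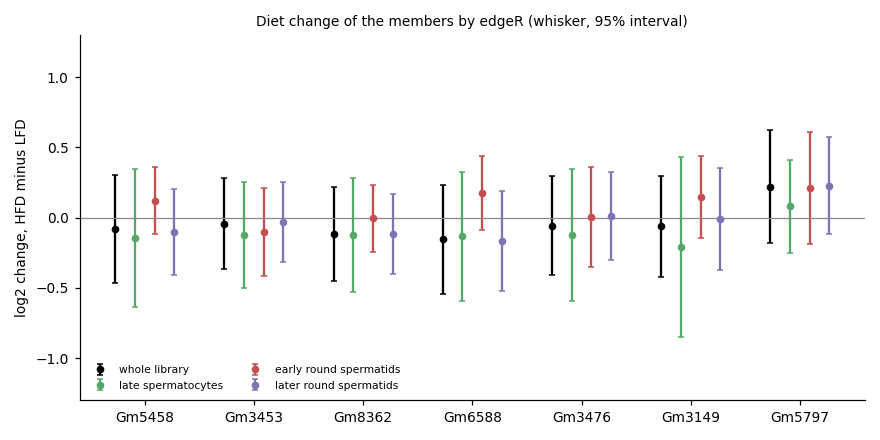
Log2 change, HFD minus LFD, of each member (y axis) with its 95% interval by edgeR in the whole library, late spermatocytes, early round spermatids and later round spermatids. Every interval crosses 0, and the points lie between -0.21 and 0.23.

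No member passed the test when a library was left out. The libraries were also divided by their haemoglobin, and what this difference stands for was not tested. With a term for the 2 libraries without haemoglobin, edgeR called 0 of 10327 genes and 0 of 7 members in early round spermatids. Within the replicate 1 libraries the log2 ratio of early round CPM, HFD minus LFD, ran from -0.38 (Gm5797) to 0.15 (Gm5458), and within the other 4 libraries all 7 ratios were positive, from 0.04 (Gm3453) to 0.53 (Gm5797). The replicate 1 pair has 1 library per diet and no test, and the other 4 libraries were not tested alone. The share of positive ratios over all genes in those 4 libraries was not computed. The signs of the members are not independent. Without HFD replicate 1 the test called 429 of 10674 genes in early round spermatids in place of 0, but still 0 of 7 members, whose lowest adjusted p was 0.230. With the replicate number as a block, a pairing that the titles do not give, it called 124 of 10327 genes and 0 of 7 members (lowest adjusted p 0.623). Of the 113 counted relatives, 27 could be tested in early round spermatids and 0 were called, with 18 at a positive log2 change and a median of 0.17. Over all genes tested 51.1% had a positive change.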

How the data were processed

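Testis cells of 6 mice (3 per diet by the study's methods) were run on the 10x Genomics 3′ platform. Labels and methods differ on the kit version. The authors aligned reads to mm10 (GRCm38) with Cell Ranger 6.0.1, which chose the barcodes, and deposited raw UMI counts per gene and barcode, not normalized. The authors' annotations were not used.

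The members and gene lists were chosen with earlier results of these data known. Barcodes of at least 4000 UMIs were assigned by z-scored marker scores. Doublets were not removed. Libraries were grouped by title. UMI sums per library and stage were tested with edgeR 4.0.16 (R 4.3.3) with TMM, filterByExpr and Benjamini-Hochberg adjustment over all genes tested, two-sided. SEs came from the F value, and intervals are at 95%. On counts simulated for early round spermatids (10099 genes), 96.5% of 200 genes with a true log2 change of 1 were found, with 18 false calls. The changed genes were drawn from the better counted ones, and the simulation held no batch. Smaller changes, such as those printed for the members, were not simulated.

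All 7 members were named, with the 10 genes most like their sum. The family was searched by transcript identity (blastn 2.17.0) in place of the planned protein identity, since no protein table was at hand, and coding sequences were aligned with mafft 7.526. Clusters came from scanpy 1.11.5 and leidenalg 0.10.2, and 72.2% of staged barcodes lay in a cluster given their own stage. Alternatives were DESeq2 1.42.0, RLE size factors, no filter, left-out libraries, a replicate block, a term for the 2 libraries without haemoglobin, stages by clusters, 8000 UMIs, boundary barcodes left out, shares averaged over barcodes, and other thinning. The titles do not pair the libraries, so the block is an alternative only. Deviations of same-numbered libraries correlated at 0.140, 0.265 and 0.183 in early round spermatids. There each HFD library correlated best with the LFD library of its own number. The same held in spermatogonia, early and pachytene spermatocytes and spermatids starting elongation. It did not hold for every library in the other stages or in the whole library. In later round spermatids HFD replicate 1 correlated best with LFD replicate 3. In the whole library the second pair was at 0.0417. Whether the libraries are paired was not tested.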

Additional observations from a re-analysis of the deposited data

Results flagged for a closer look

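The 7 members were also counted in barcodes that no comparison used. In the 33856 barcodes under 4000 UMIs, which were given no stage, they took 158 CPM together, with 143 to 190 CPM over the 6 libraries. That is above the sum in barcodes scored as Sertoli cells (67.5 CPM, or 29.7 CPM within the Sertoli cluster) and below that in late spermatocytes (328 CPM). These barcodes were not divided by cell type.

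Gm6588 had groups that did not overlap in opposite directions in both early stages. In spermatogonia the log2 ratio of mean CPM, HFD minus LFD, was 0.75, with 6.21 to 6.45 CPM in the libraries labelled HFD and 2.38 to 6.03 in those labelled LFD. In early spermatocytes it was -1.11, with 2.12 to 3.94 against 5.03 to 10.7 CPM. These levels rest on 3 to 19 UMIs per library, and 6.98% and 8.36% of the genes tested have groups that do not overlap in these stages. By edgeR neither change passed the threshold (adjusted p = 1.00 in both), and the difference between the stages was not tested.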

How the results depend on the processing

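The summed level was highest in early round spermatids in every library under each alternative, at 766 to 793 CPM when a library was left out. As a mean over barcodes of each barcode's share it was 647 CPM in place of 779, and in pachytene spermatocytes 46.0 in place of 23.0, so the ratio of these means was 14.07 in place of 33.9. Unthinned, the co-detection ratio was 1.28 in place of 1.12.

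No member passed the threshold in any of 661 fits under an alternative, with a lowest adjusted p of 0.130. The counts over all genes moved from 0. Without the filter on low counts edgeR called 7 genes in spermatogonia, 3 in early spermatocytes, 40 in pachytene spermatocytes, 10 in late spermatocytes, 59 in early round and 59 in later round spermatids, 11 in spermatids starting elongation and 4 in elongating spermatids. With the replicate block it called 24 in the whole library, 2 in early spermatocytes, 132 in pachytene spermatocytes, 1 in late spermatocytes, 124 in early round and 1 in later round spermatids and 6 in spermatids starting elongation. A term for the 2 libraries without haemoglobin gave 1 in pachytene spermatocytes. Leaving out 1 library gave 0 to 2 calls in the whole library, 0 to 1 in early spermatocytes and 0 to 429 in early round spermatids, where the 429 came without HFD replicate 1. The causes were not tested.

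Of 329 log2 changes of members under alternatives, 31 had another sign. With stages by clusters in early round spermatids Gm3453 was at 0.044 and Gm8362 at 0.040, and Gm3476 was at -0.0033 without the filter. In later round spermatids Gm3149 was at 0.0086 with RLE, 0.0086 without the filter, 0.0068 with DESeq2 and 0.033 with clusters. Leaving out 1 library gave, in the whole library, -0.20 to 0.031 (Gm3149), -0.15 to 0.011 (Gm3476) and -0.18 to 0.061 (Gm5458). In late spermatocytes it gave -0.58 to 0.059 (Gm3149), -0.35 to 0.070 (Gm3476), -0.46 to 0.0085 (Gm5458) and -0.39 to 0.0027 (Gm6588). In early round spermatids it gave -0.21 to 0.070 (Gm3453), -0.045 to 0.048 (Gm8362), -0.13 to 0.23 (Gm3476) and -0.017 to 0.36 (Gm5797). In later round spermatids it gave -0.14 to 0.035 (Gm3453), -0.17 to 0.16 (Gm3149), -0.072 to 0.14 (Gm3476) and -0.21 to 0.0040 (Gm5458).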
